A study of Mus musculus with 16 samples.

Results

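The Ago2:polyA ratio of a gene, the level of its RNA bound to Ago2 relative to its level in polyadenylated RNA, was compared between cells given miR-106b and cells given a control, over the 10149 genes with at least 10 counts in every one of 16 libraries, of 46078 genes in the count table. The labels describe the cells as mouse juxtaglomerular (JG) cells in culture, engineered to carry YFP driven by the renin promoter. They were transfected with the precursor of miR-106b or with a non-mammalian control precursor. RNA was taken at 48 h, either directly from the monolayer for polyA RNA or, from other cultures run in parallel, after trypsinization, lysis and immunoprecipitation of Ago2 (Ago2-IP), so that no Ago2-IP library shares its culture with a polyA library. Both transfections and both RNA kinds made 4 groups of 4 replicate cultures, and all of them share the same engineered cell line, which limits the comparison to that line. Both RNA kinds went through the same fragmentation and non-strand-specific library preparation. Of the 10149 genes, 9919 code for protein. The comparison asks which transcripts became more or less bound to Ago2, relative to their abundance, when miR-106b was added.

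Ago2 is the Argonaute protein that holds a miRNA in the RNA-induced silencing complex (RISC) and is guided by it to mRNAs. A target is recognised mainly through pairing of its 3′UTR with the miRNA seed, bases 2 to 8, after which the mRNA is repressed and often shortened at its polyA tail and degraded. A true target of an added miRNA can therefore show a higher ratio in either of 2 ways, by more of its RNA in the Ago2 fraction or by less of it in polyA RNA. The mature miR-106b-5p and 3 of the other 6 miRNAs in the RefSeq table (GRCm38.p6) with the same seed are shown with the seed in capitals, because the sites searched in the 3′UTRs below are its complement. These 4 share bases 2 to 8 and differ from one another at other positions, and miR-106b and miR-93 lie beside each other on chromosome 5.
mmu-miR-106b-5p: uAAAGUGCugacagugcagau
mmu-miR-93-5p: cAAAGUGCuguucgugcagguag
mmu-miR-17-5p: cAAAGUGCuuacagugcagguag
mmu-miR-20a-5p: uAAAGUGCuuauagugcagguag
mmu-miR-106b-3p: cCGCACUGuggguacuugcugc
The last is the other arm of the miR-106b hairpin, which has a different seed.

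Libraries held 2579086 to 9459585 counts, with 5692958 to 9459585 in polyA control, 2815272 to 4554848 in polyA miR-106b, 3501909 to 4616424 in Ago2-IP control and 2579086 to 3450269 in Ago2-IP miR-106b, and the 10149 genes took 97.2% to 98.8% of them. Renin itself, Ren1, the defining gene of JG cells, had 0 of 70668386 counts, which allows up to 0.0425 CPM (counts scaled to the size of the library) over all libraries and covers counting error only, and Akr1b7, another JG marker, had 6. Genes of cardiac muscle were abundant instead, with the myosin Myh6 at 8370 to 40500 CPM. The RNA thus does not show Ren1, the defining marker of its labelled cell type, though genes of the JG and kidney lists below were present. The source of the cardiac RNA is not known from these data, and every ratio below is one of the RNA as sampled. The summed level of a list of 25 cardiac genes was 21800 to 31000 CPM in polyA control, 42500 to 73600 in polyA miR-106b and 95900 to 105000 in the Ago2-IP libraries, and lists of endothelium (14 genes), leukocytes (15) and red cells (7) were ordered in the same way. A list of JG, mural and smooth muscle genes (17) was at 1470 to 1980 CPM in polyA RNA and 1250 to 1360 CPM in Ago2-IP. The 10 genes of a kidney tubule list summed to 232 to 551 CPM in polyA RNA and 5.43 to 46.7 CPM in Ago2-IP. Of them 5 reached 10 counts in all 4 polyA control libraries, among them Pax8 at 163 to 197 CPM and Cdh16 at 128 to 250 CPM. In the Ago2-IP groups 0 did, so that none reached 10 counts in every library. Fewer cells of a type and less RNA per cell cannot be told apart in such bulk samples.

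Among the Ago2-IP libraries, replicate 4 of each group stood apart from replicates 1 to 3 of its own group and lay with those of the other, so that both go against their labels. In a chi-square comparison of the counts of the 10149 genes, the library labelled Ago2-IP control replicate 4 differed from the other control libraries by 6.6 to 11.1 per degree of freedom and from miR-106b replicates 1 to 3 by 1.75 to 2.92, and the library labelled Ago2-IP miR-106b replicate 4 differed from the other miR-106b libraries by 4.0 to 11.9 and from control replicates 1 to 3 by 2.08 to 2.61. Gm10800, a repeat-like gene, was at 1520, 225 and 1650 CPM in Ago2-IP control replicates 1 to 3 and 11200 in replicate 4, against 10600, 15000 and 7710 in Ago2-IP miR-106b replicates 1 to 3 and 1480 in replicate 4. The nuclear RNA Malat1 crossed in the same way, with 1530, 1520, 1750 and 3460 CPM in Ago2-IP control replicates 1 to 4 and 3360, 3370, 2100 and 1590 in Ago2-IP miR-106b. The cause of the crossing was not tested, and the labels were used as given. Results are therefore also given without both of these libraries, a choice made after seeing the data.

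The ratio differed between miR-106b and control for 3594 of the 10149 genes (35.4%; 27.3% of all 14897 genes tested) by edgeR's quasi-likelihood test of the interaction of RNA kind and transfection, with a Benjamini-Hochberg adjusted p below 0.05. It was higher with miR-106b for 935 of them (9.21%; 7.61% of all genes tested) and lower for 2659 (26.2%; 19.7% of all genes tested). The split depended on how the libraries were scaled to each other. It was 935 higher and 2659 lower with TMM over all 16 libraries, 1721 and 2120 with library size only, and 1662 and 2165 with TMM within each RNA kind, as the median change of all tested genes moved from -0.07 to 0.10 on the log2 scale between TMM and library size. The changes given below are on the TMM scale, where the median of the 10149 genes was -0.11. Without a p threshold, a fitted rise of at least 2-fold was seen for 241 genes (2.37%; 8.1% of all genes tested) and a fall of at least 2-fold for 1441 (14.2%; 15.4% of all genes tested). Without both Ago2-IP replicates 4, 729 were higher and 2547 lower. Leaving out polyA control replicate 2 gave 676 higher and 2357 lower, and leaving out polyA miR-106b replicate 1 gave 1324 higher and 2749 lower.

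With the labels as given, nearly all of this change lay in polyA RNA. In the same fit, 5183 of the 10149 genes (51.1%; 41.9% of all genes tested) passed that threshold in polyA RNA, 3275 higher (32.3%; 25.7% of all genes tested) and 1908 lower (18.8%; 16.2% of all genes tested) with miR-106b. In Ago2-IP RNA 0 genes did (0.0% of all genes tested), with 270 at an unadjusted p under 0.05, 0 calls in DESeq2's Wald test and in limma voom, and 6 in edgeR's likelihood ratio test. This count rests on groups that each hold a library like those of the other group. Without Ago2-IP control replicate 4 alone 380 genes had an unadjusted p under 0.05, without Ago2-IP miR-106b replicate 4 alone 335, and 0 were called in both fits. Without both, 476 did and 11 were called, all 11 higher with miR-106b, and the polyA change was still the larger for 3140 of the 3276 genes with a changed ratio. As these libraries were left out for their values, those 11 are a description. Among the genes with a higher ratio, the polyA change was larger than the Ago2-IP change for 914 of 935 (97.8%), and among those with a lower ratio for 2641 of 2659 (99.3%), against 82.7% of the 10149 genes, 75.5% of all genes tested and 73.9% of the genes without a called ratio. The median gene with a higher ratio had a log2 change of -0.66 in polyA and 0.04 in Ago2-IP RNA, and the median gene with a lower ratio 0.98 and -0.06. Of the 935, 596 fell in polyA with a fitted Ago2-IP change above 0, and 339 had fitted changes below 0 in both. The ranges of the miR-106b and the control libraries were separate in polyA RNA for 835 of the 935 and 2407 of the 2659 genes (36.6% of all genes tested), and in Ago2-IP RNA for 34 and 126 (3.36% of all genes tested). Among replicates 1 to 3 alone, the Ago2-IP ranges were separate for 162 of the 935 and 706 of the 2659 genes (17.5% of all genes tested), so that an overlap of Ago2-IP groups given below can rest on the replicates 4.

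**Figure D1:**
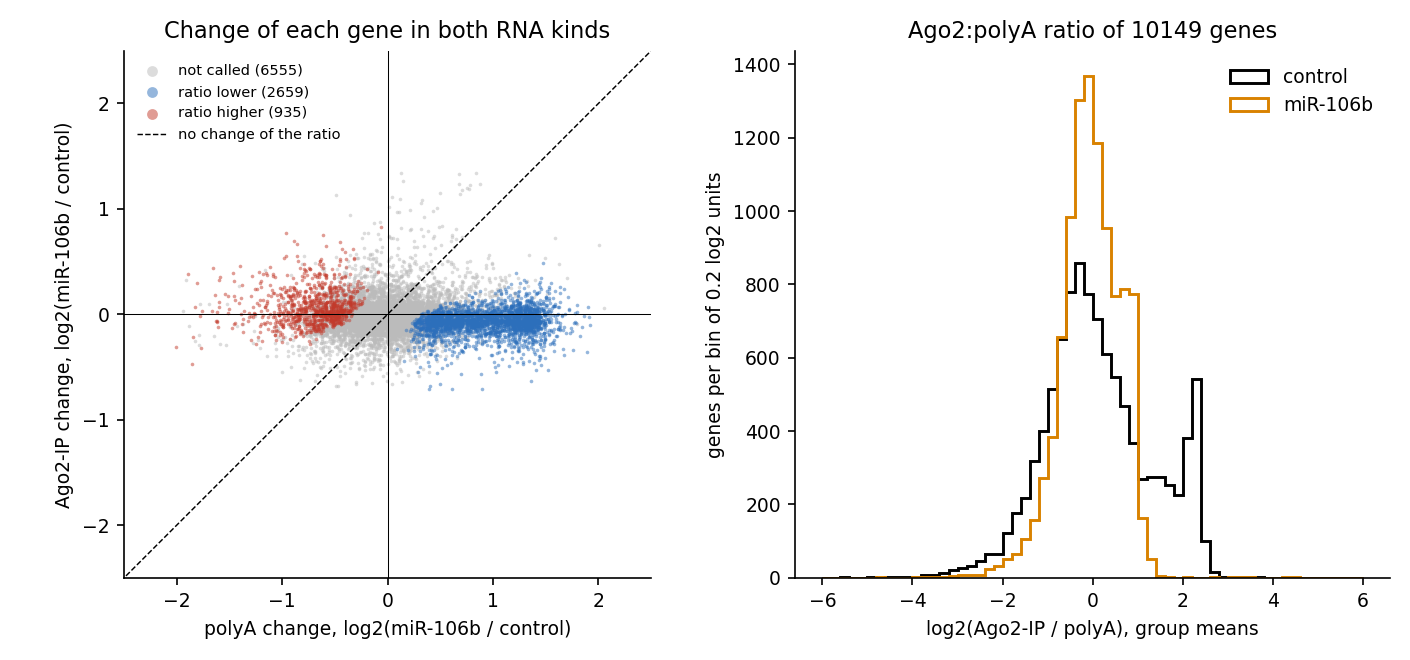
Left, the log2 change of each of the 10149 genes in polyA RNA (x axis) and in Ago2-IP RNA (y axis), miR-106b against control, where genes with a higher ratio (red) and a lower ratio (blue) spread along the polyA axis, with medians of -0.66 and 0.98, and lie near 0 on the Ago2-IP axis (grey, not called; dashed line, equal change in both). Right, the number of genes per bin of the log2 ratio of group means, whose SD over genes is 1.19 in control (black) and 0.67 with miR-106b (orange).

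The ratios moved toward 1 from both sides. The genes whose ratio rose had a median log2 ratio of -1.32 in control, below the polyA level, and -0.58 with miR-106b. The genes whose ratio fell went from 1.70 to 0.66. Over all 10149 genes the SD of the log2 ratio was 1.19 in control and 0.67 with miR-106b, and 3864 genes (38.1%) against 982 (9.68%) were at least 2-fold away from a ratio of 1. At least 4-fold above it were 1054 genes in control and 15 with miR-106b, and at least 4-fold below it 292 and 92. Where a ratio of 1 lies, and so what is below the polyA level, is set by the TMM scaling. These counts are given on that scale only. The rising and falling genes were chosen by the change itself, so their medians describe it and test nothing.

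Taken library by library, each polyA library against the mean of the 8 Ago2-IP libraries, the SD over genes was 1.16, 1.28, 1.25 and 1.10 in polyA control replicates 1 to 4 and 0.93, 0.55, 0.78 and 0.57 in polyA miR-106b replicates 1 to 4. The groups did not overlap (two-sided exact permutation test, p = 0.0286, as small as 4 against 4 libraries allow). Each Ago2-IP library against the mean of the polyA libraries gave an SD of 0.90 to 0.97, with no difference between transfections that passed the same exact test (p = 0.686, replicates 4 grouped by their labels). The level of the cardiac list followed the opposite order in the same polyA libraries, with 28000, 21800, 23500 and 31000 CPM in control and 42500, 73600, 53300 and 71300 CPM with miR-106b (exact permutation test, p = 0.0286). The list was chosen with earlier results of these data known, so its p-values describe these libraries and are no independent support. In Ago2-IP, with replicates 4 grouped by their labels, the list gave p = 0.429 in the exact permutation test. Replicates 1 to 3 were separate there, at 103000 to 105000 CPM in control and 95900 to 102000 CPM with miR-106b, with 98500 CPM in control replicate 4 and 105000 CPM in miR-106b replicate 4. With the log2 cardiac level of each library as a covariate of the fit, 0 of the 10149 genes had a changed ratio in edgeR's test, with 1483 at an unadjusted p under 0.05, while the median SE rose from 0.21 to 0.34. In these data that level and the transfection of the polyA libraries do not overlap, so their parts in the ratio change cannot be told apart. Without polyA miR-106b replicates 2 and 4, the libraries with the highest cardiac level of that group, 605 genes were higher and 1967 lower.

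**Figure D2:**
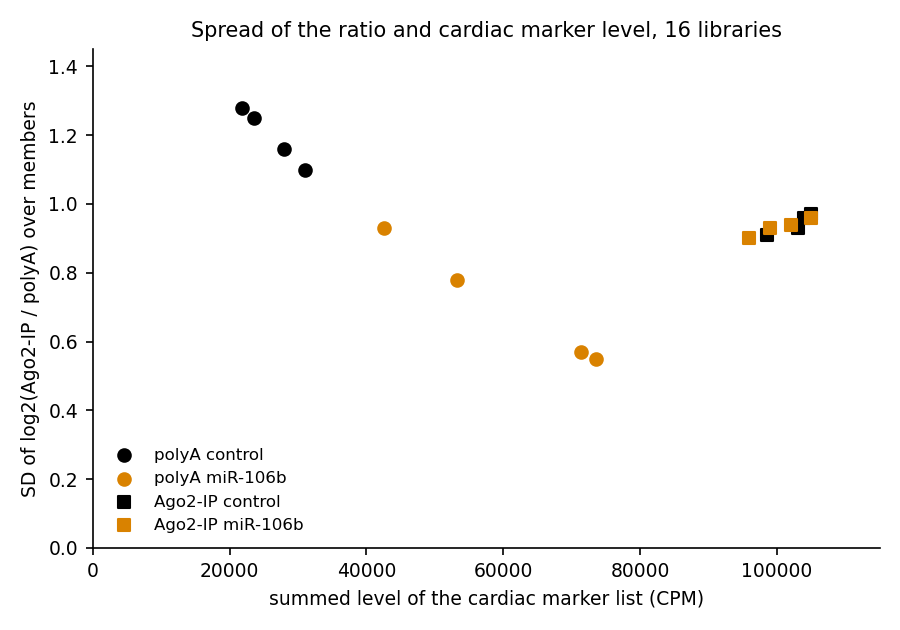
Each point is 1 of the 16 libraries, with the summed level of 25 cardiac genes in CPM (x axis) and the SD over 10149 genes of the log2 ratio of that library against the mean of the other RNA kind (y axis); circles are polyA and squares Ago2-IP libraries, black control and orange miR-106b. The polyA miR-106b libraries have higher cardiac levels and smaller SDs (0.55 to 0.93) than the polyA control libraries (1.10 to 1.28), and the Ago2-IP libraries of both transfections lie at SDs of 0.90 to 0.97 and cardiac levels of 95900 to 105000 CPM, where the cardiac levels of the transfections overlap only through replicate 4 of each group.

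Of the 10 largest called rises, 4 were of genes on the list of mitosis and cytokinesis, 2 on that of DNA replication and 1 on that of serine synthesis and the ATF4 response. Of the list of 43 DNA replication genes, 24 had at least 10 counts in every library, and the ratio of 19 rose and of 0 fell (7.61% and 19.7% of all genes tested rose and fell, as for every list below), with a median of 1.34 against -0.11 over the 10149 genes. Of 44 genes of mitosis and cytokinesis 21 were measured so, 13 rose and 0 fell, with a median of 1.62. Without both Ago2-IP replicates 4 the rises numbered 14 and 10. Their medians in polyA RNA were -1.36 and -1.60 and in Ago2-IP 0.01 and 0.02. With the cardiac level as a covariate the medians of the ratio change were 0.98 and 1.62, with 0 genes called. The largest rise of all was that of Iqgap3 (ENSMUSG00000028068, chromosome 3 from 88081970 to 88121048 on GRCm38), a scaffold protein of cell division. Its normalised level was 84.4 to 120.0 CPM in the polyA control libraries, 13.5, 34.3, 51.0 and 13.4 in polyA miR-106b, 14.6, 16, 8.26 and 15.6 in Ago2-IP control, and 15.7, 21.8, 19.9 and 13.5 in Ago2-IP miR-106b. The polyA groups were separate, the control libraries the higher, and the Ago2-IP groups overlapped. The Ago2-IP level was thus 0.131 of the polyA level in control and 0.631 with miR-106b, a log2 change of 2.27 (SE 0.547, edgeR adjusted p = 0.00745, exact permutation p = 0.00327 over 4900 relabellings within RNA kinds).

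Among the replication genes the firmest rise was that of Lig1 (chromosome 7, 13277282 to 13311433), which seals nicks in newly made DNA. It was at 70.2, 70.6, 69.1 and 45.8 CPM in polyA control and 15.2, 22.4, 33.0 and 21.9 in polyA miR-106b, against 14.6, 17.3, 11.5 and 11.8 in Ago2-IP control and 16.5, 15.9, 17.1 and 22.1 in Ago2-IP miR-106b. Every polyA control library was above every polyA miR-106b library, and the Ago2-IP groups overlapped. The ratio rose by 1.86 (SE 0.29, edgeR adjusted p = 5.19e-05). The helicase subunits Mcm2 to Mcm7 rose by 1.26 to 1.68 where called, the ribonucleotide reductase subunit Rrm1 by 1.37, and the sliding clamp Pcna by 0.96. Foxm1, a transcription factor of the G2 and M phases, rose by 1.95 (edgeR adjusted p = 0.00273), and its Ago2-IP libraries did not overlap either, with 13.3 to 18 CPM in control and 18.6 to 24.0 CPM with miR-106b. Atad2, a bromodomain ATPase, rose by 2.1, the mitotic kinase Aurka by 1.94, the E2F repressor E2f8 by 1.86, the kinesin Kif18b by 1.82 and the spindle factor Tpx2 by 1.78, each with an edgeR adjusted p below 0.05. The call of Kif18b (adjusted p = 0.0399 in that test) was lost in 12 of the 16 fits that leave out 1 library, with no filter on low counts (1.95, edgeR adjusted p = 0.0865) and without both Ago2-IP replicates 4 (2.04, 0.0616), and those of Kif18b, Tpx2 and Mcm3 were lost without polyA miR-106b replicates 2 and 4, at changes of 1.71, 1.65 and 1.54 (edgeR adjusted p = 0.12, 0.0841 and 0.0598).

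Of 33 genes of serine synthesis and the ATF4 response, 30 were measured in every library, and 17 rose and 2 fell, with a median of 0.65. Psat1 (chromosome 19, 15904677 to 15947337), an aminotransferase of serine synthesis, was at 74.9, 74.6, 74.8 and 46.1 CPM in polyA control, 10.7, 24.7, 33.8 and 7.42 in polyA miR-106b, 3.43, 5.86, 5.60 and 4.25 in Ago2-IP control and 6.19, 6.22, 6.99 and 4.17 in Ago2-IP miR-106b. The separation lay in polyA RNA, and the Ago2-IP values, a few CPM, overlapped through miR-106b replicate 4 and were separate in replicates 1 to 3, with miR-106b the higher. Its ratio rose by 2.1 (SE 0.625, edgeR adjusted p = 0.0219), a call lost without Ago2-IP miR-106b replicate 3 (edgeR adjusted p = 0.0507) and with no filter on low counts (2.24, edgeR adjusted p = 0.0555). In the same list the folate enzymes Mthfd2 and Shmt2 rose by 1.52 and 0.91, the phosphatase Psph by 1.25 and the aminoacyl-tRNA synthetase Aars by 0.69, while Vldlr, a lipoprotein receptor, fell by 0.81. Of 17 measured genes of cholesterol synthesis and uptake 9 rose and 0 fell, with a median of 0.80, and 5 rose without both Ago2-IP replicates 4. Hmgcs1, which makes HMG-CoA, was at 52.7, 54.9, 53.2 and 57.5 CPM in polyA control, 31.6, 41.9, 46.5 and 27.9 in polyA miR-106b, 30.2, 29.0, 26.5 and 32.4 in Ago2-IP control and 34.7, 36.4, 31.8 and 37.5 in Ago2-IP miR-106b. The polyA groups were again separate, and of the Ago2-IP control libraries only replicate 4 reached into the miR-106b range. Its ratio rose by 0.80 (SE 0.189, edgeR adjusted p = 0.00245), from 0.541 to 0.949. Lrp8, a lipoprotein receptor, rose by 1.90. With the cardiac covariate the medians of the serine and cholesterol lists were 0.18 and 0.81.

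The genes of cytosolic ribosomal proteins moved by less. Of 76 measured, 39 rose and 1 fell, with a median of 0.39, 63 rose with library size only and 20 without both Ago2-IP replicates 4, while the median was -0.12 with the cardiac covariate. Rpl3 rose by 0.83 (SE 0.174) and Rpsa by 0.61 (SE 0.151). The exception was Rpl3l, the muscle-specific paralog of Rpl3, which fell by 1.48 (SE 0.189, edgeR adjusted p = 1.86e-05). Its polyA level was 51.0 to 73.4 CPM in control and 126 to 208 CPM with miR-106b, and its Ago2-IP level 294 to 325 CPM and 289 to 328 CPM. The 2 paralogs thus moved in opposite directions in polyA RNA. Of 28 measured genes of RISC, deadenylation and miRNA processing, 5 rose and 1 fell (17.9% and 3.57%, against 7.61% and 19.7% of all genes tested), and 3 rose without both Ago2-IP replicates 4. The median was 0.16, which was 0.33 with library size only and -0.07 with the cardiac covariate. Ago2 itself rose by 0.47, the polyA-binding protein Pabpc1 by 0.65, the deadenylase subunits Cnot1, Pan2 and Pan3 by 0.48, 0.69 and 0.66, and Ago4 fell by 1.28 (SE 0.285, edgeR adjusted p = 0.00147).

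**Figure D3:**
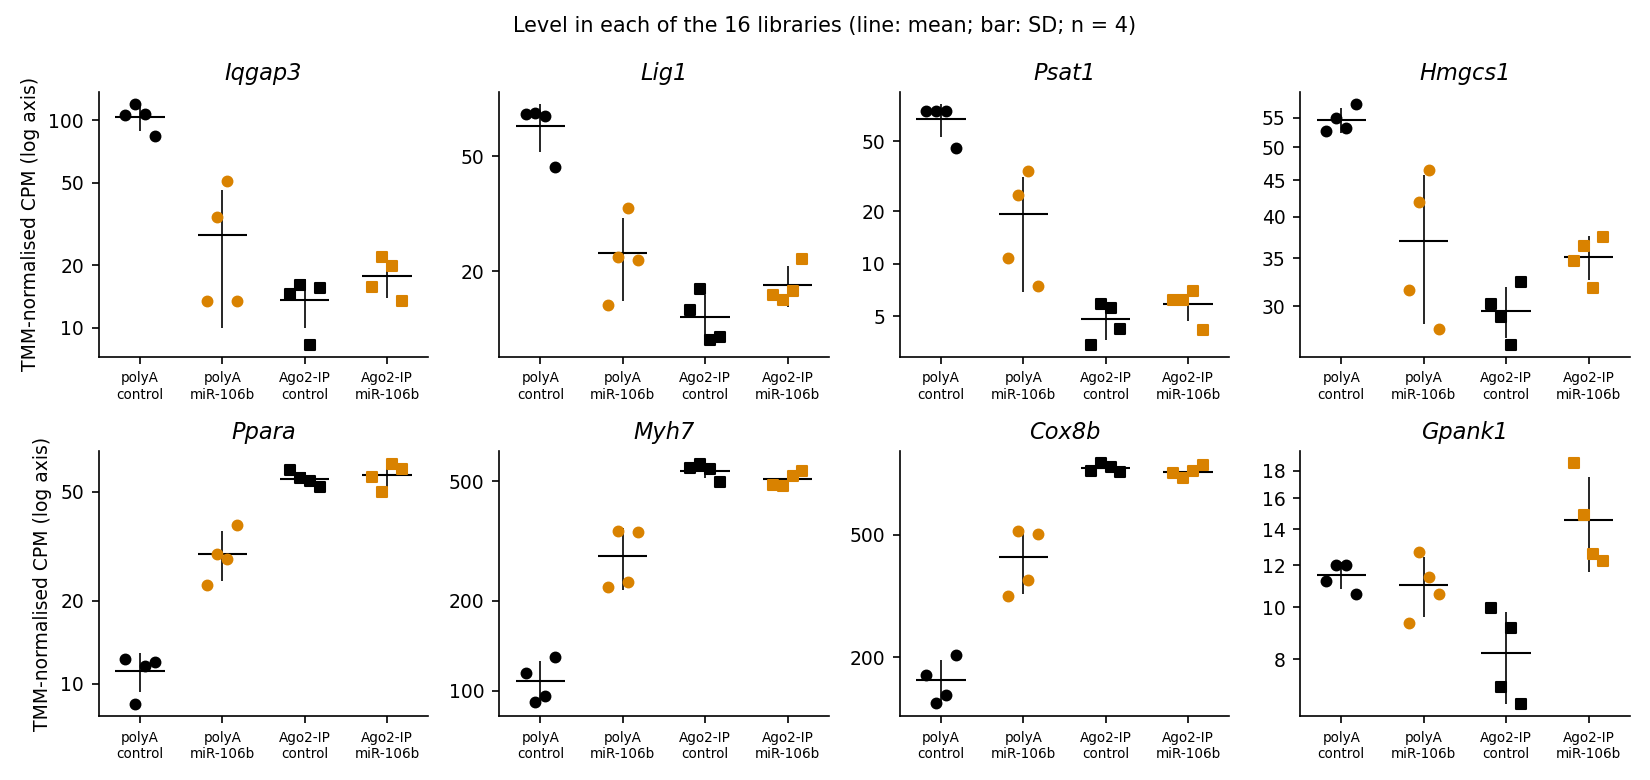
Normalised CPM on a log axis for 8 genes in each of the 16 libraries, with polyA libraries as circles and Ago2-IP libraries as squares, control in black and miR-106b in orange; horizontal lines are group means and vertical bars SD (n = 4). Iqgap3, Lig1, Psat1 and Hmgcs1 are lower in polyA miR-106b than in polyA control, Ppara, Myh7 and Cox8b are higher, with overlapping Ago2-IP groups for these 7 genes (for Psat1, Hmgcs1 and Myh7 only through replicates 4), while for Gpank1 the Ago2-IP groups are separate and the polyA groups overlap.

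Among the genes whose ratio fell, those of the heart muscle moved as a block. All 23 of the 25 cardiac genes that were measured in every library fell, with a median of -1.39, a polyA median of 1.35 and an Ago2-IP median of -0.05. Their log2 ratios lay within 2.23 to 2.33 in control and within 0.84 to 0.95 with miR-106b. Myh7 (chromosome 14, 54970687 to 54994634), a myosin heavy chain, was at 115, 91.9, 95.9 and 130.0 CPM in polyA control and 222, 341, 231 and 338 in polyA miR-106b, against 554, 571, 551 and 499 in Ago2-IP control and 488, 484, 522 and 543 in Ago2-IP miR-106b. The polyA groups were separate, the miR-106b libraries the higher, while the Ago2-IP groups lay above every polyA library and overlapped only through their replicates 4, with control the higher in replicates 1 to 3. The ratio fell from 5.03 to 1.80, a log2 change of -1.48 (SE 0.185, edgeR adjusted p = 1.64e-05). Replicates 2 and 4 of polyA miR-106b had the highest levels of Myh7 in polyA RNA, as they had the highest summed cardiac level.

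Genes of oxidative metabolism fell with few exceptions. The ratio fell for 24 of 26 measured genes of fatty acid oxidation and PPAR targets (median -1.14), for 72 of 77 genes of the nuclear-encoded respiratory chain (-0.94) and for 11 of 14 of the mitochondrial genome (-0.82), and rose for 0 genes of the 3 lists. Library size alone called 1 gene of the respiratory chain higher, and left the medians at -0.97, -0.77 and -0.65. With the cardiac covariate they were -0.15, -0.14 and 0.07, with 0 genes called. Cox8b, a muscle isoform of a cytochrome c oxidase subunit, was at 175, 142, 151 and 203 CPM in polyA control, 316, 513, 355 and 502 in polyA miR-106b, 803, 852, 826 and 799 in Ago2-IP control and 794, 761, 805 and 843 in Ago2-IP miR-106b. The 3 levels were apart, with Ago2-IP of both transfections highest and polyA control lowest. Its ratio fell by 1.36 on the log2 scale (SE 0.186, edgeR adjusted p = 2.14e-05). Acaa2, a thiolase of fatty acid oxidation, fell by 1.23, the pyruvate dehydrogenase kinase Pdk4 by 1.32 and the fatty acid binding protein Fabp3 by 1.38. mt-Nd6 fell by 0.89 (SE 0.168, edgeR adjusted p = 0.000328). It lies on the opposite strand of the mitochondrial genome from most genes there, and without strand its reads cannot be told apart from antisense RNA.

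The ratios of Ppara, the receptor that drives fatty acid oxidation, and of Ppargc1a, its coactivator, fell together, while the polyA levels of both rose. Ppara (chromosome 15, 85734982 to 85802819) was at 12.3, 8.42, 11.6 and 12 CPM in polyA control, 22.9, 29.7, 28.5 and 37.8 in polyA miR-106b, 59.8, 55.9, 54.6 and 52.0 in Ago2-IP control and 56.5, 50, 63.2 and 60.6 in Ago2-IP miR-106b. The polyA groups did not overlap and the Ago2-IP groups did. Its log2 ratio went from 2.33 to 0.96, a change of -1.37 (SE 0.203, edgeR adjusted p = 3.04e-05). Of the 16 measured PGC-1 coactivators and partner factors 10 fell and 2 rose, with a median of -0.47. Those that fell included Ppargc1b (-1.37) and the estrogen-related receptors Esrrg (-1.61), Esrrb (-1.49) and Esrra (-0.91), and those that rose were Pprc1 (0.78) and Med1 (0.46). The ratio of Ppargc1a changed by -1.38, from a log2 ratio of 2.24 in control to 0.86 with miR-106b. Its mean polyA level rose from 11.3 to 28.3 CPM (log2 change 1.33, edgeR adjusted p = 7.74e-06), with separate groups. Its Ago2-IP change was -0.05. The control ratios of Ppara and Ppargc1a lie within the range of the cardiac genes. With miR-106b that of Ppargc1a did too, and that of Ppara was above the cardiac range of 0.84 to 0.95. The cardiac list was higher in the same polyA libraries, so the parts of cardiac level and transfection in these changes cannot be told apart. With the cardiac level as a covariate the change of Ppara was -0.45 (SE 0.307, edgeR adjusted p = 0.603) and that of Ppargc1a was 0.05 (SE 0.344).

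The single largest fall was that of Ddx3y (chromosome Y, 1260770 to 1286629), an RNA helicase gene of the Y chromosome. It was at 2.38, 1.20, 2.0 and 2.15 CPM in polyA control, 3.48, 8.84, 3.70 and 13.4 in polyA miR-106b, 11.2, 11.7, 10.3 and 8.97 in Ago2-IP control and 7.84, 8.39, 8.39 and 8.01 in Ago2-IP miR-106b. Neither pair of groups overlapped, and the spread among the polyA miR-106b libraries was wide, with replicates 2 and 4 highest. Its ratio fell by 2.26 (SE 0.468, edgeR adjusted p = 0.00077, exact permutation p = 0.000408, the smallest that 4900 relabellings allow), and it fell by 1.26 without those 2 libraries (edgeR adjusted p = 0.0352). With the cardiac covariate the direction turned, to 0.42 (SE 0.693, edgeR adjusted p = 0.858). The secreted signal Wnt5b fell by 2.07 (SE 0.674, edgeR adjusted p = 0.0322), but its polyA groups overlapped, at 29.0 and 20.5 CPM in polyA miR-106b replicates 1 and 4 and at 4.42 and 6.08 in replicates 2 and 3, and the call was lost in 9 of the 16 fits that leave out 1 library and in limma voom (adjusted p = 0.122) and without both Ago2-IP replicates 4 (-1.90, edgeR adjusted p = 0.0982). The next falls were those of the RNA-binding protein gene Raver2 (-2.05), Gngt2, a G protein gamma subunit (-2.04), Saysd1 (-2.01), the homeobox gene Irx1 (-2.0), the nucleoside transporter Slc28a2 (-1.99), the amino acid transporter Slc36a2 (-1.96) and Coro2a, an actin-binding coronin (-1.94). These genes had 1.20 to 5.54 CPM in the polyA control libraries, so that each value rests on few counts. Raver2, Irx1 and Slc28a2 were the ones among them whose Ago2-IP groups did not overlap, with the miR-106b libraries the lower, and Saysd1 joined them in replicates 1 to 3.

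Genes of cAMP signalling, which controls renin release, were looked at by role. Of 12 measured adenylate cyclases and protein kinase A genes 6 fell and 0 rose, with a median of -0.53. Adcy5, a cyclase of the heart and other tissues, fell most among those called, by 1.41 (SE 0.213, edgeR adjusted p = 5.35e-05), and Prkaca, the catalytic subunit of the kinase, fell by 0.54. Of 11 measured cAMP phosphodiesterases, which break cAMP down, 6 fell and 1 rose, with a median of -0.72. With the cardiac covariate the medians of the cyclase and kinase list and of the phosphodiesterases were -0.12 and 0.04, with 0 genes called. Pde2a fell by 1.30 (SE 0.184), with polyA levels of 23.9 to 32.4 CPM in control and 53.6 to 86.6 CPM with miR-106b and Ago2-IP levels of 124 to 146 CPM over both. The one that rose was Pde10a (chromosome 17, 8525371 to 8986648), at 21.1, 25.2, 23.9 and 19.2 CPM in polyA control, 13.9, 13, 12.7 and 8.12 in polyA miR-106b, 6.23, 6.79, 4.42 and 5.67 in Ago2-IP control and 6.19, 7.77, 6.29 and 6.73 in Ago2-IP miR-106b. Only the polyA groups of the 2 pairs were separate, with control the higher. Its change was 1.12 (SE 0.284, edgeR adjusted p = 0.00453, exact permutation p = 0.00286) and 1.01 without polyA miR-106b replicates 2 and 4 (adjusted p = 0.0161).

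Pde3b, another phosphodiesterase, had as few as 7 counts in a library and so is no member. Its fitted ratio change was 1.02 (SE 0.491, edgeR adjusted p = 0.134), with 22.6 to 32.0 CPM in polyA control, 6.0 to 20.2 in polyA miR-106b, 2.16 to 8.85 in Ago2-IP control and 3.84 to 7.77 in Ago2-IP miR-106b. The polyA groups were separate and the Ago2-IP groups wide and overlapping. Of 11 measured CREB factors and coactivators, the transcription factors that answer to cAMP, 0 were called (median -0.07, which became 0.10 with library size only), while 2 were called higher with library size only. Creb1 was at 25.0, 25.6, 28.8 and 27.5 CPM in polyA control, 17.0, 19.2, 20.1 and 18 in polyA miR-106b, 19.3, 23.8, 12.4 and 12.5 in Ago2-IP control and 18.6, 12.4, 18.9 and 19.5 in Ago2-IP miR-106b. It was lower in every polyA miR-106b library than in any polyA control library, and each Ago2-IP group held a wide spread. Its ratio change was 0.56 (SE 0.261, edgeR adjusted p = 0.115), which passed the threshold with library size only (0.73, edgeR adjusted p = 0.0382), with TMM within each RNA kind (0.71), without a filter on low counts (0.71), in the likelihood ratio test (0.67) and without Ago2-IP control replicate 2 (0.76). E2f1, a cell cycle factor and known target of the miRNA family, had a change of 0.70 that also missed the threshold (edgeR adjusted p = 0.111). It fell by 0.74 in polyA RNA (SE 0.196, edgeR adjusted p = 0.0039), from 55.1, 62.5, 48.9 and 39.7 CPM in control to 45.3, 27.8, 32.0 and 16.6 CPM with miR-106b, where polyA miR-106b replicate 1 lay in the control range, and its Ago2-IP level was 9.66 to 14.2 CPM in control and 11.1 to 14.0 CPM with miR-106b. The ratio change passed the threshold without that replicate (0.96, edgeR adjusted p = 0.00837), without a filter on low counts (0.85) and in the likelihood ratio test (0.74), and its direction turned with the cardiac covariate, to -0.64 (SE 0.37, edgeR adjusted p = 0.515).

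Genes of other cell types fell like those of the heart. The ratio fell for 13 of 14 measured endothelial genes (median -1.41), 12 of 14 leukocyte genes (-1.37) and 4 of 4 red cell genes (-1.49), and rose for 0 genes of these lists. With the cardiac covariate their medians were -0.03, -0.17 and 0.03. Esam, an adhesion molecule of endothelium, fell by 1.44 (SE 0.169), with 19.9 to 26.3 CPM in polyA control, 46.2 to 67.8 CPM in polyA miR-106b and 96.8 to 120.0 CPM over the Ago2-IP libraries. The clotting factor gene Vwf fell by 1.30, the macrophage receptor Csf1r by 1.36 (SE 0.182) and the globin Hbb-bs by 1.54 (SE 0.222), a gene with near-identical copies among which counting can split reads. Of the 11 measured genes of the JG, mural and smooth muscle list 8 fell, with a median of -1.09 (-0.19 with the cardiac covariate), among them the pericyte genes Cspg4 (-1.54, SE 0.183), Rgs5 (-1.26) and Pdgfrb (-1.09), and 0 rose, where library size only called 1 higher. The smooth muscle gene Tagln was not called, at 0.29. The interferon-stimulated genes fell in 16 of 27 cases (median -0.92), with Irf7, a master regulator of the response, at -1.44 (SE 0.207). Their median polyA change was 0.95 and their Ago2-IP median -0.08, and the cardiac, endothelial and leukocyte lists were higher in the same libraries, a link that was not tested here. In the covariate fit, which cannot part the cardiac level from the transfection, the median of the list was -0.21.

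Of 38 measured genes of collagens and matrix, 13 fell and 2 rose (34.2% and 5.26%, against 19.7% and 7.61% of all genes tested), with a median of -0.21, and 1 rose without both Ago2-IP replicates 4. With library size only 12 fell and 5 rose, with a median of -0.04, and with the cardiac covariate the median was -0.46. The laminin chain Lama4 fell by 1.31 (SE 0.15, edgeR adjusted p = 1.54e-05) and Col1a2 and the proteoglycan Dcn by 1.42 and 1.41, while fibronectin, Fn1, rose by 0.97 and Col6a3 by 0.52. Lama4 was at 30.8 to 41.5 CPM in polyA control and 75.6 to 98.9 CPM in polyA miR-106b, and at 121 to 155 CPM over the Ago2-IP libraries. Of 140 measured Zfp genes 26 fell and 6 rose, where 19.7% and 7.61% of all genes tested did (median -0.18, and -0.01 with library size only, which called 13 lower and 17 higher). Zfp651, which carries an 8mer site, fell by 1.06. Of 3 measured histone genes, Hist1h2bc and Hist1h1c fell, by 1.20 and 0.92. Among 6 nuclear long RNAs the imprinted Rian and Meg3 fell, by 1.92 and 1.24, and Malat1, at 0.36 (SE 0.402), and Neat1, at -0.18, were not called. Without both Ago2-IP replicates 4 the change of Malat1 was 0.90 and was called (edgeR adjusted p = 0.00849).

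**Figure D4:**
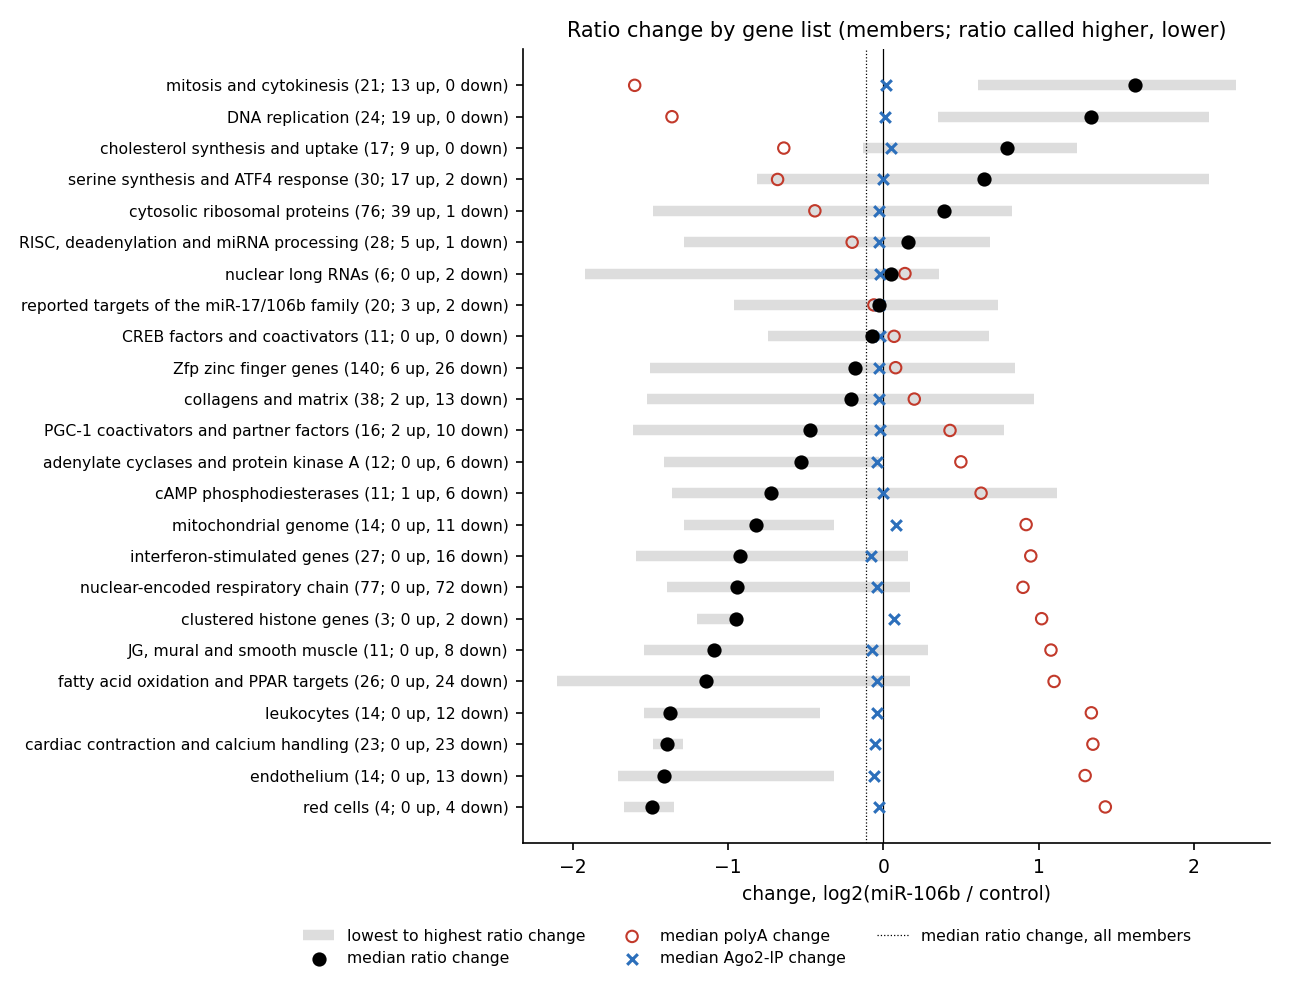
For each gene list, the lowest to highest ratio change of its measured members (grey bar) with the median change of the ratio (black), of polyA RNA (red ring) and of Ago2-IP RNA (blue cross), in log2 units, beside the number of members and of those called higher and lower. Ratio and polyA medians run from 1.62 and -1.60 in mitosis to -1.49 and 1.43 in red cells, with opposite signs in all lists but the reported targets (-0.03 and -0.06) and the nuclear long RNAs (0.05 and 0.14), and every Ago2-IP median lies within 0.08 of 0 in these lists.

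With the labels as given, few genes rose through the Ago2 fraction. Over the 10149 genes, the fitted Ago2-IP change was at least 2-fold higher for 19 (0.187%; 3.46% of all genes tested) and at least 2-fold lower for 0 (0.0%; 1.0% of all genes tested). Without both Ago2-IP replicates 4 it was at least 2-fold higher for 72 and lower for 0. Of the 11 genes called in that fit, 2 held an 8mer, 1 a 7mer-m8, 4 a 6mer and 3 none of the classes, where 4.78%, 10.6%, 19.7% and 57.5% of the 9903 genes with a known 3′UTR did, and 1 had no known 3′UTR. Those with an 8mer were Wdr60, at 1.66, and Cald1, an actin-binding caldesmon, at 1.51 (0.54 for each with all libraries). The others were Gm22009 (1.72, no known 3′UTR), Ccdc34 (1.52), Ppig (1.12), Luc7l3 (1.01), Eif5b (0.76), Rbm25 (0.75), Eif3a (0.74), Pnn (0.73) and Prpf38b (0.73). They were named after their values were seen. Among the genes with a called rise of the ratio, Gpank1 (chromosome 17, 35121454 to 35124814), a gene of the major histocompatibility region, had the largest rise in Ago2-IP. It was at 9.97, 7.10, 9.14 and 6.61 CPM in Ago2-IP control and 18.6, 14.9, 12.6 and 12.2 in Ago2-IP miR-106b, with 11.2, 12, 12 and 10.6 in polyA control and 9.36, 12.7, 11.4 and 10.6 in polyA miR-106b. Here the Ago2-IP groups were separate and the polyA groups overlapped. Its log2 change was 0.83 in Ago2-IP (SE 0.196, unadjusted p = 0.000321 in edgeR, not past the threshold once adjusted) and -0.06 in polyA, and the ratio rose by 0.89 (edgeR adjusted p = 0.0142). The next were the myosin Myo9a (0.77 in Ago2-IP and -0.96 in polyA), the chloride transporter Clcn5 (0.75 and -0.61), Fam208b (0.70 and -0.89) and Klhl11 (0.69 and -0.45), whose Ago2-IP groups overlapped in each case, for Clcn5, Fam208b and Klhl11 only through replicates 4. Myo9a and Clcn5 each hold a 7mer-m8 site, and Gpank1, Fam208b and Klhl11 hold none of the 4 site classes.

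To see whether the ratio followed the seed of miR-106b-5p, its sites were searched in the longest 3′UTR per gene, known for 9903 of the 10149 genes. The letters, on the mRNA strand, were GCACTTTA for an 8mer, GCACTTT for a 7mer-m8, CACTTTA for a 7mer-A1 and CACTTT for a 6mer, each gene counted under its best class. The median ratio change was -0.09 for 473 genes with an 8mer, -0.03 for 1047 with a 7mer-m8, -0.07 for 738 with a 7mer-A1, -0.06 for 1946 with a 6mer and -0.16 for 5699 with none of these classes, against -0.12 over the 9903. With library size only the median of the 10149 genes was 0.06, so the order of the classes and not their sign is described. The ratio rose for 6.77% of genes with an 8mer and 9.74% with a 7mer-m8, against 8.97% with none and 9.31% over the 9903, and fell for 22.6%, 23.2%, 28.0% and 26.2%. For 244 genes with 2 or more 7mer-m8 matches the median was 0.03. In Ago2-IP RNA the median was -0.03 in each of the 4 site classes and -0.04 in genes with none. Without both Ago2-IP replicates 4 it was -0.05 for an 8mer, a 7mer-m8 and a 7mer-A1, -0.06 for a 6mer and -0.07 with none, and the median ratio changes were -0.09, -0.03, -0.10, -0.09 and -0.18.

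Genes with a site had longer 3′UTRs than genes without. The median length was 2562 bases in genes with an 8mer or 7mer-m8 and 758 in genes with none of the 4 classes. Among the site classes the ratio change did not follow length. Median length and change were 2700 bases and -0.09 for an 8mer, 2504 and -0.03 for a 7mer-m8, 2402 and -0.07 for a 7mer-A1, and 1907 and -0.06 for a 6mer. The genes were then split into 4 equal bins by length, and those with an 8mer or 7mer-m8 compared with all others, which include genes with a 7mer-A1 or 6mer. Among the genes with the longest 3′UTRs, the median ratio change was 0.00 for 813 with an 8mer or 7mer-m8 and -0.04 for 1663 without. It was -0.05 and -0.10 in the next shorter bin, -0.11 and -0.14 in the one after, and among those with the shortest it was -0.24 for 62 with and -0.21 for 2420 without. For the 3p arm, 290 genes with an 8mer or 7mer-m8 had a median of -0.12. Of 20 measured genes reported as targets of the miR-17 family, to which miR-106b belongs, 3 rose (15%, against 7.61% of all genes tested) and 2 fell (10%, against 19.7%), with a median of -0.03, which became 0.14 with library size only, where 4 rose and 1 fell. With TMM within each RNA kind 5 rose and 1 fell. Those that rose were Ccnd1 (0.71), Cdkn1a (0.44) and Smad7 (0.52), and those that fell Vegfa, at -0.96 (SE 0.157), and Stat3, at -0.39.

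The 6 genes with an 8mer whose ratio rose most are shown by their site, in capitals, with flanking bases of the GRCm38 3′UTR, to give the context of these sites. They were chosen for holding an 8mer, and the ratio rose for 6.77% of genes with an 8mer against 8.97% of genes with none of the classes.
Lrp8: gttcaacacaaGCACTTTAtaaaatagtct
Mcm3: cccacccccagGCACTTTAgtccaggaagc
Mfap3l: gcccccagataGCACTTTAagagtcaaata
Ugdh: gtctacagactGCACTTTAataatacaagg
D030056L22Rik: acactgatataGCACTTTAgccatttctgc
Nfat5: tactctattgtGCACTTTAatcattccaaa
The 8 bases lie at chr4:107875701-107875708 for Lrp8, chr1:20803165-20803172 for Mcm3, chr8:60672715-60672722 for Mfap3l, chr5:65413640-65413647 for Ugdh, chr19:18718123-18718130 for D030056L22Rik and chr8:107377119-107377126 for Nfat5, those of Mcm3 and Ugdh on the minus strand and the others on the plus strand. Lrp8 was at 65.5, 62.1, 65.6 and 44.9 CPM in polyA control, 12.4, 17.7, 29.1 and 7.06 in polyA miR-106b, 6.23, 8.64, 6.78 and 5.90 in Ago2-IP control and 7.02, 9.95, 6.29 and 5.45 in Ago2-IP miR-106b. It was lower in each polyA miR-106b library than in any polyA control library, with Ago2-IP levels that overlapped. Its polyA change was -1.83 and its Ago2-IP change 0.07 (unadjusted p = 0.847 in edgeR's test). The other 5 rose in ratio by 1.68 (Mcm3), 1.32 (Mfap3l), 1.27 (Ugdh, an enzyme of sugar nucleotides), 1.27 (D030056L22Rik) and 1.10 (Nfat5, the factor of the osmotic response), with polyA changes from -0.83 to -1.51 and Ago2-IP changes from 0.00 to 0.44. The call of Nfat5 was lost without polyA miR-106b replicates 2 and 4, at 0.90 (edgeR adjusted p = 0.066), and so was that of Klhl11, at 1.15 (0.0531).

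**Figure D5:**
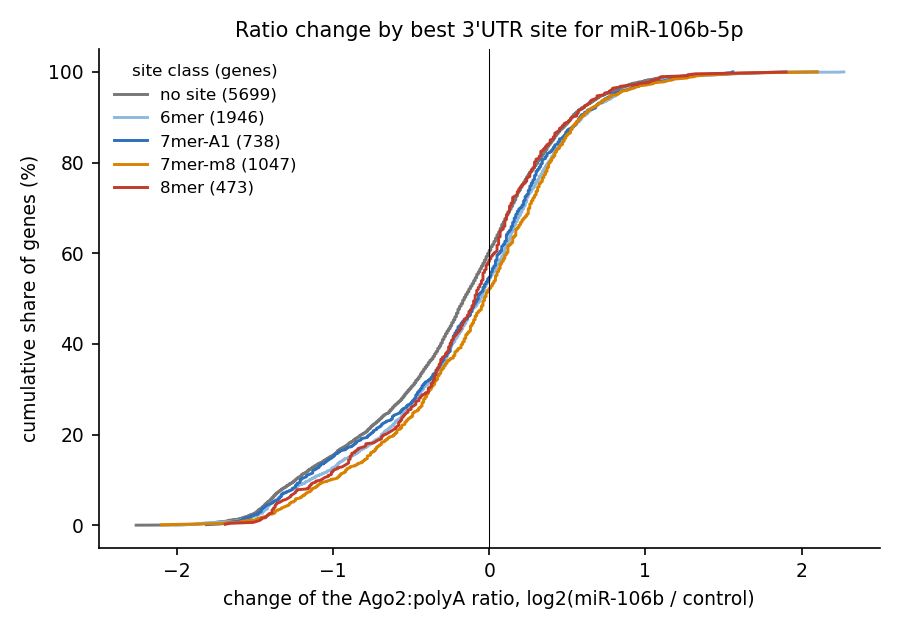
Cumulative share of genes (y axis, percent) by the log2 change of the Ago2:polyA ratio (x axis) for 5 classes of 3′UTR site, with the number of genes of each class in the legend. The curves run close together, with medians from -0.16 for genes without a site to -0.03 for genes with a 7mer-m8, and that of the 8mer class, at -0.09, lies between them.

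Since the genes with rising ratios held many of DNA replication, the promoters in the RefSeq table (GRCm38.p6, 250 bases before to 50 after the start) were searched on both strands for E2F motifs (TTTCCCGC, TTTCGCGC, TTTGCCGC or TTTGGCGC). They were held by 2.6% of all 27025 promoters and by 4.57% of the 7659 matched to the 10149 genes, and by 48 of 707 (6.79%) for genes with a rising ratio, 58 of 1962 (2.96%) with a falling ratio, 6 of 19 (31.6%) for the replication list and 1 of 15 (6.67%) for the mitosis and cytokinesis list. The cAMP response element, TGACGTCA, was held by 2.03% of all promoters and 3.58% of the 7659, by 22 of 707 (3.11%) with a rising ratio, 47 of 1962 (2.4%) with a falling ratio and 4.11% with a ratio not called. The E2F motifs were held by 4.89% of the last. A match is only a match of letters.

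The rule of 10 counts set which genes could be seen. Of all genes, 181 had a lowest count of exactly 10 and 200 of exactly 9, with median ratio changes of -0.09 and -0.04. Just inside were Phgdh, the first enzyme of serine synthesis (1.32), Rrm2 (1.59), the activin subunit Inhba (1.29) and Gm10722 (0.44, SE 1.22), and just outside Loxl4 (1.76), the squalene epoxidase Sqle (1.59), the cGMP phosphodiesterase Pde5a (0.11) and Lrrc75b (0.68). Those inside were not called, with edgeR adjusted p = 0.0553 for Phgdh, 0.0947 for Rrm2, 0.0514 for Inhba and 0.828 for Gm10722. Outside, Loxl4 (0.0314) and Sqle (0.0434) passed the threshold, and Pde5a and Lrrc75b did not. Gm10722 belongs to a set of repeat-like genes with near-identical copies, and ranged from 3.09 to 119 CPM in Ago2-IP. In 4 bins of mean level, from lowest to highest, 4.02%, 9.3%, 10.8% and 12.8% of the genes rose and 20.2%, 20%, 25.6% and 38.9% fell, with median SEs of 0.32, 0.23, 0.18 and 0.15.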

How the data were processed

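The deposited table holds raw counts per gene, which the authors made from single-end, non-strand-specific reads without ribosomal RNA, aligned to GRCm38 with TopHat2 (version 2.0.10 in the submitters' processing notes) and counted with HTSeq. Of its 46078 rows, 197 carry no symbol (0.618% of counts). These were kept in the tests and, where the reference names them, in the list counts, but are not named here. As in the methods of the study, genes entered the tests if 3 or more of the 4 libraries of a group had at least 1 CPM, which left 14897. In edgeR version 4.0.16 (R 4.3.3), libraries were scaled by TMM over all 16, counts were fitted with glmQLFit (robust, prior count 0.125) and the interaction of RNA kind and transfection was tested (two-sided; Benjamini-Hochberg over the 14897 genes; threshold 0.05). Changes in polyA and Ago2-IP RNA are contrasts of the same fit, so that they add up to the change of the ratio. DESeq2 version 1.42.0 and limma version 3.58.1 served as alternatives, beside other scalings, filters, a replicate block, a cardiac covariate and each library left out. The fits without polyA miR-106b replicates 2 and 4 and without both Ago2-IP replicates 4 were chosen after seeing the data. Permutation tests used log2 of normalised CPM plus 0.5 (Python 3.11.15). Depth is the total count per library, and intervals and floors (3 counts) cover counting error only.

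Members and gene lists were chosen with earlier results of these data known. Lists were not tested, except for the summed level of the cardiac list, compared between transfections by exact permutation tests. Genes named are the 10 largest called rises and falls, 6 genes of the study, the called member with the smallest p of each list, the 5 called rises with the largest Ago2-IP rise, the 6 largest rises with an 8mer, and 4 genes just inside and outside the count rule; other list members given by name were chosen after their values were seen. Results of some genes, 1 of the 10 largest falls among them, are not reported here. 3′UTRs came from GENCODE M21. No library was a duplicate of another by a chi-square comparison of counts. Replicate numbers did not pair the libraries across groups.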

Additional observations from a re-analysis of the deposited data

Results flagged for a closer look

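In 16 of the 256 sets of 4 libraries checked, for 64 named genes in 4 groups, the highest or lowest library stood apart from the other 3 (its gap to the next, over the range, above Dixon's 95% critical value), where chance flags about 1 in 20. In polyA control, replicate 4 was the lowest for Psat1 (46.1 CPM), Lrp8 (44.9) and Lig1 (45.8) and the highest for Slc28a2 (4.00) and Zfp651 (149), and replicate 3 the lowest for Clcn5 (16.3). Replicate 4 also had the highest cardiac level of that group, at 31000 CPM. In polyA miR-106b, replicate 2 was the highest for Slc28a2 (11.4) and replicate 1 for Lrrc75b (53.8). In Ago2-IP control, replicate 2 was the highest for Lama4 (152) and replicate 4 for Phgdh (10.6) and Gm10722 (81.2). In Ago2-IP miR-106b, replicate 4 was the highest for Atad2 (10.6) and E2f8 (11.2) and the lowest for Ago4 (12.2), replicate 3 the highest for Ppargc1a (57.7) and replicate 2 the lowest for Creb1 (12.4). Phgdh, Creb1, Gm10722 and Lrrc75b were not called.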

How the results depend on the processing

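The counts of genes with a changed ratio kept within 1.5 times of 3594 in every setting tried but the cardiac covariate, where the numbers with a changed ratio, with a higher or a lower ratio, with a changed polyA level and with a larger polyA change were all 0 and the fitted ratio was at least 2-fold lower for 512 (its collinearity with transfection is given with the result). The genes with a higher ratio numbered 1721 with library size only, 1662 with TMM within each RNA kind, 1404 when no genes were filtered and 605 without polyA miR-106b replicates 2 and 4, and those at least 2-fold higher 421, 392, 389 and 168, with 143 among genes of at least 20 counts. Without those 2 replicates 673 were at least 2-fold lower. The cause of these shifts was not tested, other than the median shift given for the scalings. Ago2-IP calls were 6 in the likelihood ratio test, 1 with no filter and 11 without both Ago2-IP replicates 4. Leaving out 1 library gave 676 to 1324 higher, 2188 to 2967 lower, 3033 to 4158 in all, 167 to 378 at least 2-fold higher (378 without polyA miR-106b replicate 3), 1053 to 1608 at least 2-fold lower, 4482 to 5588 in polyA, and 3006 to 4112 with a larger polyA change. With the replicate block 922 were higher and 2561 lower, and the numbers did not pair libraries, with correlations of -0.35 to 0.38 between same-numbered ones. Of 59 named members, 4 (Kif18b, Wnt5b, Klhl11 and Psat1) lost the call in some fit without 1 library, and all 53 that were called lost it under the cardiac covariate. Without both Ago2-IP replicates 4 the calls of Kif18b and Wnt5b were lost and Inhba was called. Signs turned under the cardiac covariate for Ddx3y (0.42), Slc36a2 (0.12), E2f1 (-0.64), Ppargc1a (0.05) and mt-Nd6 (0.01), none past the threshold, and for Gm10722 without Ago2-IP miR-106b replicate 2 (-0.06), whose values ran up to 2.11 without Ago2-IP control replicate 4. Depth limits genes of a few CPM most.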
